A study of Homo sapiens with 6 samples.

Results

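The BCL2 family genes decide in large part whether a blood cell survives, and 10 of them were followed here in the AML cell line MV4-11. The members were the rows of the gene count matrix whose Ensembl identifiers carry the symbols *BCL2*, *BCL2L1*, *MCL1* and *BCL2A1* (survival members), *BAX* and *BAK1* (effectors), and *BID*, *BBC3*, *PMAIP1* and *BCL2L11* (BH3-only members). All 10 were found among the 61806 genes of the matrix. MV4-11 is a human acute myeloid leukemia line with monocytic features that carries a *FLT3* internal tandem duplication and a *KMT2A-AFF1* fusion. RNA sequencing was performed on 3 libraries of cells with a control shRNA (shNC) and on 3 libraries whose labels say shATGL, for an shRNA that targets *ATGL*. This gene of a triglyceride lipase is *PNPLA2* in the annotation. The paper describes lentiviral delivery of the shRNAs, and names GFP and puromycin for its lentiviral vectors without saying whether the sequenced cells were selected. More than 1 shRNA sequence against *ATGL* was designed, and the labels do not say which was used for these libraries or whether the 3 libraries of a group came from separate cultures. P-values therefore measure only the spread between these libraries, which may be technical. The study asks what loss of ATGL does to these leukemia cells, including their apoptosis. By Western blot of knockdown cells it reports less Bcl-2 protein and slightly more Bax protein, which RNA counts do not measure.

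Survival members hold the effectors inactive at the outer mitochondrial membrane. BH3-only members answer stress signals: they occupy the groove of the survival proteins, and some also activate the effectors directly. Activated BAX and BAK1 proteins then open the membrane, cytochrome c leaves the mitochondrion and caspases are switched on. AML cells often depend on *BCL2* and *MCL1*, and drugs that fill the BCL2 groove are used against the disease. Most of this control acts on the proteins, which RNA counts do not measure.

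What the family shares is the BH3 motif, the short helix that fits into the groove. The stretches that code for its core are shown because they are the common feature by which the survival, effector and BH3-only members belong together. They are coding-strand sequences of 27 bases, written 5′ to 3′, from the principal transcripts of GENCODE 29 on GRCh38. Capitals mark the codon of the conserved leucine and the codons of the glycine (alanine in *BBC3*) and aspartate that follow it.
BCL2: ctgaccCTCcgccaggccGGCGACgac
BCL2L1: caagcgCTGagggaggcaGGCGACgag
MCL1: gagaccTTAcgacgggttGGGGATggc
BAX: gagtgtCTCaagcgcatcGGGGACgaa
BAK1: cggcagCTCgccatcatcGGGGACgac
BID: aggcacCTCgcccaggtcGGGGACagc
BBC3: gcccagCTGcggcggatgGCGGACgac
PMAIP1: actcaaCTCaggagatttGGAGACaaa
BCL2L11: caagagTTGcggcgtattGGAGACgag

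Each stretch lies in a coding exon. On the minus strand, the *BCL2* core is in exon 1 of 2 at chr18:63318358-63318384, the *BCL2L1* core in exon 1 of 2 at chr20:31721931-31721957, and the *MCL1* core in exon 1 of 3 at chr1:150578874-150578900. Also on the minus strand are the cores of *BAK1* (exon 4 of 6, chr6:33575396-33575422), *BID* (exon 4 of 6, chr22:17739424-17739450) and *BBC3* (exon 3 of 4, chr19:47226588-47226614). On the plus strand are those of *BAX* (exon 3 of 6, chr19:48955781-48955807), *PMAIP1* (exon 2 of 2, chr18:59902667-59902693) and *BCL2L11* (exon 4 of 5, chr2:111150097-111150123). In *BCL2A1* these letters were not found in either of its 2 coding transcripts. Not every transcript of a gene holds its core: 9 of the 16 coding transcripts of *BCL2L11* and 4 of the 11 of *BID* do. The deposited counts are per gene, so transcripts with and without the core were not separated.

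Library totals lay between 59674064 and 74808280 counts. *PNPLA2* RNA was 102 ± 5.10 CPM in shNC and 101 ± 2.96 CPM in shATGL (SD, n = 3 each), where CPM are counts scaled to a common library total. The libraries labelled shATGL thus showed no lower level of the targeted transcript. The paper reports knockdown of ATGL protein in this cell line by Western blot. It also describes *ATGL* expression as decreased in knockdown cells of a later experiment. The RNA counts of these libraries do not show such a decrease, and whether the sequenced cells had less ATGL protein was not tested. The comparisons below are therefore between libraries by label, without a knockdown seen in their RNA. Of 10 AML markers, 9 were above 1 CPM and *CD14* was near 0. Of the B cell markers, *PAX5* was at 6.26 to 7.63 CPM in shNC and 7.61 to 7.78 in shATGL, *CD79A* was at 0.991 to 2.79 and 1.62 to 2.41 CPM, and *MS4A1* had no counts. Their part in the members' values was not tested. The T cell, erythroid, platelet, epithelial and fibroblast lists summed to at most 1.40 CPM in any library. In bulk libraries fewer cells of a type cannot be told apart from less RNA per cell. 1 library decided much of the comparison: 1 of 19149 tested genes was called with all 6 libraries, and 319 of 19954 without shATGL 3. The mitochondrial genome gave 7.66% of the counts in shATGL 3, against 6.34% and 6.51% in shATGL 1 and 2 and 7.41% to 8.17% in shNC. Log2 fold changes without shATGL 3, some with adjusted p-values, are therefore given as well. This library was singled out after seeing the data, and leaving it out keeps only shATGL 1 and 2. Adjusted p-values of that fit are given as a description.

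No member of the family passed the test between shATGL and shNC. A gene was called at an adjusted p-value under 0.05 (edgeR's quasi-likelihood test, Benjamini-Hochberg adjustment over 19149 genes) together with a fold of 2 or more. Of the 9 members with enough counts to be tested, 0 were called, where 0.00522% of all genes tested were. At an unadjusted p-value under 0.05, edgeR gave 0 of 9 members (11.7% of all 19149 genes tested). DESeq2 gave 0 (7.02% of 31959 genes, low ones included), and limma voom with library weights gave 3 (30.6% of 19149). The 9 log2 fold changes had a median of -0.13, against 0.01 over all genes tested, and 7 were below 0, where 48.1% of all genes were. In 2 members, *BCL2L1* and *BBC3*, all shATGL libraries lay below all shNC libraries, and 9.38% of all genes tested did the same. *BCL2A1* was too low to be tested with edgeR in all 6 libraries and is in none of the edgeR counts.

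**Figure D1:**
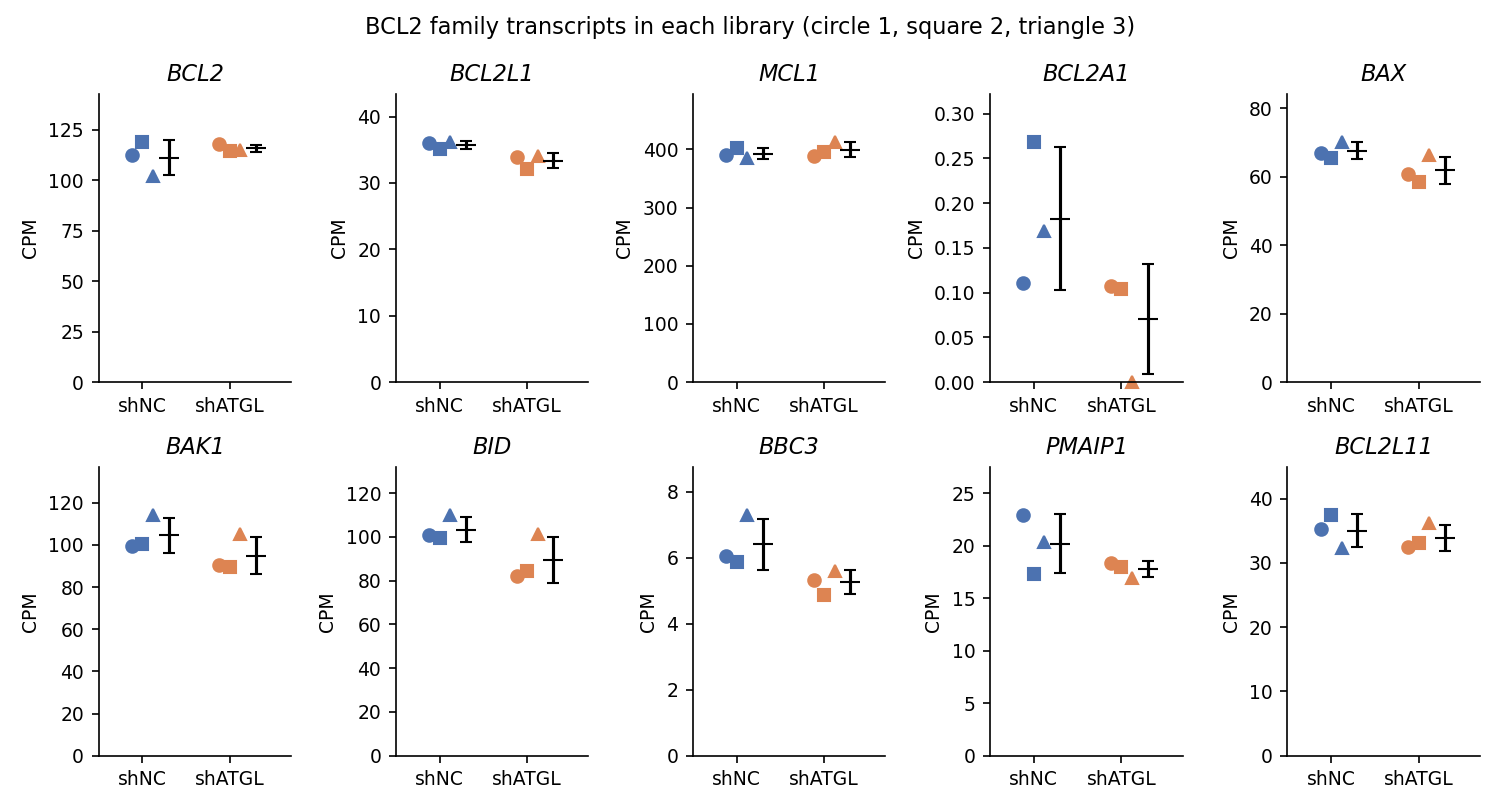
Level of each of the 10 members in CPM (linear axes from 0), by library, with shNC in blue and shATGL in orange; black bars are the mean ± SD of 3 libraries. The shATGL points lie below all shNC points in *BCL2L1*, in *BBC3* and, at 8 counts or fewer, in *BCL2A1*; in the other 7 panels the groups overlap.

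Of the survival members, *MCL1* and *BCL2* had fold changes just above 0. *MCL1* encodes a short-lived survival protein on which myeloid cells lean. Its level was 391, 403 and 384 CPM in shNC 1 to 3 and 389, 396 and 413 CPM in shATGL 1 to 3. The groups overlapped, with the highest value in shATGL 3. The log2 fold change was 0.03 (SE 0.05; 95% confidence interval -0.10 to 0.15; adjusted p = 0.870), and without shATGL 3 it was -0.0013. *BCL2*, the founding survival gene, was at 112, 119 and 102 CPM in shNC and at 118, 115 and 115 CPM in shATGL. All shATGL values lay inside the shNC range. Its log2 fold change was 0.06 (SE 0.07; interval -0.11 to 0.22; adjusted p = 0.758), so that the shATGL level was 104% of the shNC level with an interval of 92.9% to 117%. Without shATGL 3 the log2 value was again 0.06, but it rested on the controls: it was 0.0003 without shNC 3 and 0.13 without shNC 2.

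*BCL2L1* encodes the survival protein BCL-XL and, by alternative splicing, a shorter form that promotes death. Its level was 36.0, 35.1 and 36.2 CPM in shNC and 33.9, 32.1 and 34.1 CPM in shATGL. In CPM, which include the TMM factors, the groups did not overlap, but the gap was small and rested on that scaling. The log2 fold change was -0.10 (SE 0.07; interval -0.26 to 0.06; adjusted p = 0.567). Without shATGL 3 it was -0.12. The exact two-sided permutation test gave p = 0.1, the smallest that the 20 relabellings of 3 against 3 allow. *BCL2A1*, a survival gene induced by NF-κB, was counted 8, 16 and 12 times in the shNC libraries and 8, 8 and 0 times in the shATGL libraries. These are 0.110, 0.269 and 0.169 CPM against 0.108, 0.104 and 0 CPM, and a count of 0 in shATGL 3 allows up to 0.0499 CPM (3 counts; counting error only). shNC 1, shATGL 1 and shATGL 2 were equal at 8 counts, so the CPM of these 3 libraries differ only by the scaling. At these counts the gene was under the filter in the fit of all 6 libraries. Without shATGL 3 it passed, with a log2 fold change of -0.77 (adjusted p = 0.610).

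The effectors *BAX* and *BAK1* had log2 fold changes of like size. *BAX*, whose protein moves from the cytosol to mitochondria when activated, was at 67.0, 65.4 and 70.3 CPM in shNC and at 60.9, 58.6 and 66.4 CPM in shATGL. The value of shATGL 3 lay inside the shNC range and the other two shATGL values lay below it. The log2 fold change was -0.13 (SE 0.07; interval -0.29 to 0.04; adjusted p = 0.515). *BAK1*, whose protein sits in the outer mitochondrial membrane, was at 99.4, 100.3 and 114 CPM in shNC and at 90.3, 89.3 and 105 CPM in shATGL. Here too shATGL 3 lay inside the shNC range and the other two below it. The log2 fold change was -0.14 (SE 0.09; interval -0.35 to 0.07; adjusted p = 0.547). Without shATGL 3 the values were -0.18 for *BAX* (adjusted p = 0.0757) and -0.22 for *BAK1* (adjusted p = 0.0745), and without shNC 3 *BAK1* was at -0.07.

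The 4 BH3-only members all had log2 fold changes below 0. *BID*, whose protein is cut by caspase-8 and carries the death receptor signal to mitochondria, was at 101, 99.5 and 110.0 CPM in shNC. In shATGL it was at 82.3, 84.3 and 101 CPM. shATGL 1 and 2 lay below every shNC library, and shATGL 3 lay among them. The log2 fold change was -0.21 (SE 0.09; interval -0.43 to 0.01; adjusted p = 0.431). *BID* was the member whose adjusted p crossed 0.05 with the settings, although it was called in none. Without shATGL 3 its log2 fold change was -0.31 with an adjusted p of 0.0166, still short of a fold change of 2, in a fit where 6.07% of all genes were lower at an adjusted p under 0.05. With limma voom and library weights it was -0.28 with an adjusted p of 0.0318, where 5.27% of all genes were lower at that limit. Its adjusted p ranged from 0.0166 to 0.842 over its 14 alternatives. It was then 1 of the 10 members tested without shATGL 3 and 1 of 9 with limma voom.

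*BBC3* encodes PUMA, a p53 target that binds every survival protein. Its level was 6.06, 5.86 and 7.29 CPM in shNC and 5.33, 4.86 and 5.59 CPM in shATGL. The groups did not overlap. *BBC3* had the lowest log2 fold change of the members tested, -0.29, with the widest interval (SE 0.14; -0.61 to 0.04; adjusted p = 0.460; exact permutation p = 0.1). It was -0.33 without shATGL 3 and -0.18 without shNC 3. *PMAIP1* encodes NOXA, which binds chiefly MCL1. It was at 22.9, 17.3 and 20.3 CPM in shNC and at 18.4, 17.98 and 16.9 CPM in shATGL. The spread was in the controls, and the groups overlapped through shNC 2. The log2 fold change was -0.19 (SE 0.12; interval -0.46 to 0.09; adjusted p = 0.545). It was -0.15 without shATGL 3 and -0.09 without shNC 1.

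*BCL2L11* encodes BIM, which binds every survival protein and can activate the effectors. Its level was 35.3, 37.4 and 32.3 CPM in shNC and 32.4, 33.1 and 36.2 CPM in shATGL. The groups covered nearly the same range, with a log2 fold change of -0.05 (SE 0.09; interval -0.25 to 0.16; adjusted p = 0.850) that became -0.10 without shATGL 3 and 0.03 without shNC 2. Its exons share 727 bases with *MIR4435-2HG* on the other strand, a noncoding RNA with 724 to 989 counts a library. The strand setting of the counting is not given in the sources used here, so reads of the pair cannot be told apart there. *BCL2L1* likewise shares 1424 exon bases with *ABALON* on the other strand, which had 18 to 37 counts. *BAK1P1*, a processed pseudogene of *BAK1*, had 15 to 43 counts.

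**Figure D2:**
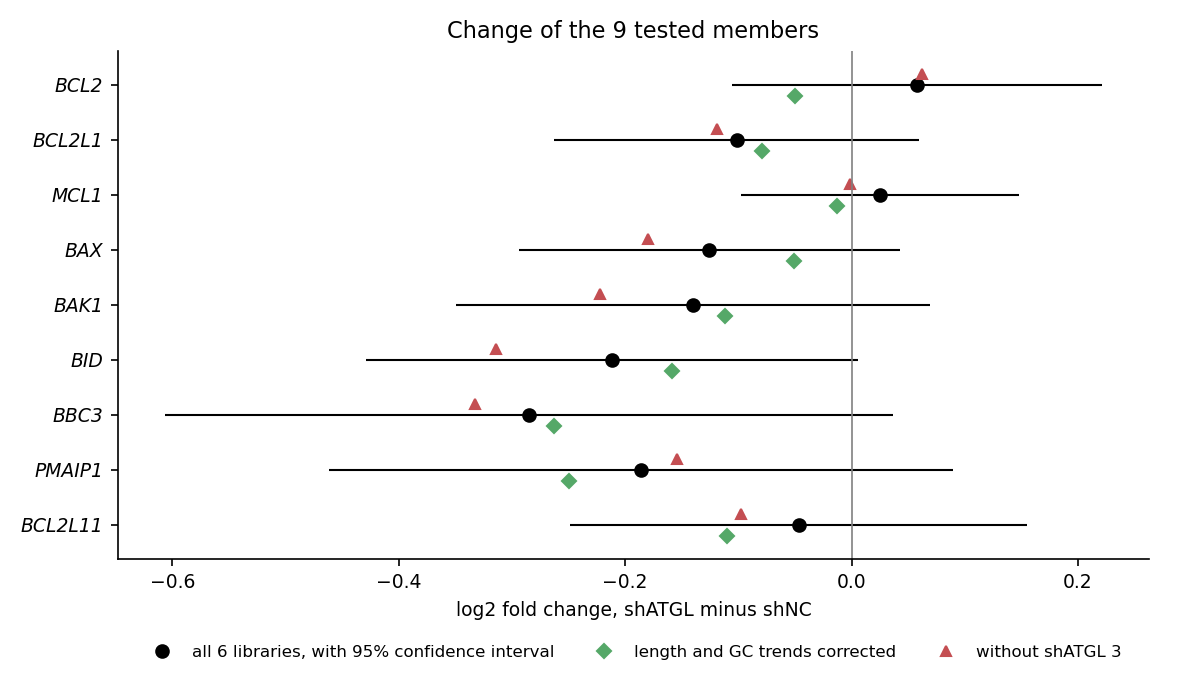
Log2 fold change of the 9 tested members (shATGL minus shNC). Black points with lines give the edgeR value of all 6 libraries and its 95% confidence interval, green diamonds the value after correction for transcript length and GC content, and red triangles the value without shATGL 3. Every interval holds 0, and *BID*, whose interval ends at 0.01, comes closest to leaving it.

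The levels of different genes were compared per length, as CPM per kilobase of the longest protein-coding transcript, averaged over all 6 libraries (SD, n = 6). *MCL1* stood first with 101 ± 2.68, and it was 2.11 times as high as the next gene. *BAX* (47.7 ± 3.15), *BAK1* (45.1 ± 4.21) and *BID* (38.6 ± 4.33) followed. *BCL2* took place 5 with 15.2 ± 0.807, before *BCL2L1* with 13.2 ± 0.594. *PMAIP1* (9.74 ± 1.17), *BCL2L11* (6.59 ± 0.411) and *BBC3* (3.17 ± 0.451) came next, and *BCL2A1* was last with 0.123 ± 0.0857. Neighbours overlapped over the libraries in 3 places: *BAX* with *BAK1*, *BAK1* with *BID*, and *BCL2* with *BCL2L1*. Within single libraries *BAX* was above *BAK1* in 6 of 6, *BAK1* above *BID* in 6 of 6, and *BCL2* above *BCL2L1* in 5 of 6, the exception being shNC 3. All other neighbours were apart.

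The place of *BCL2* depended on the length used. Its long transcript of 7461 bases holds a short coding part, and *BCL2* took place 2 per kilobase of coding sequence, place 5 by the longest transcript and place 6 by the union of exons. *BAX* took places 5, 2 and 3 by the same choices. *MCL1* was at place 1 under each, and *BBC3* and *BCL2A1* were at places 9 and 10. Which transcripts the cells used was not measured, so the middle of the order is uncertain.

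**Figure D3:**
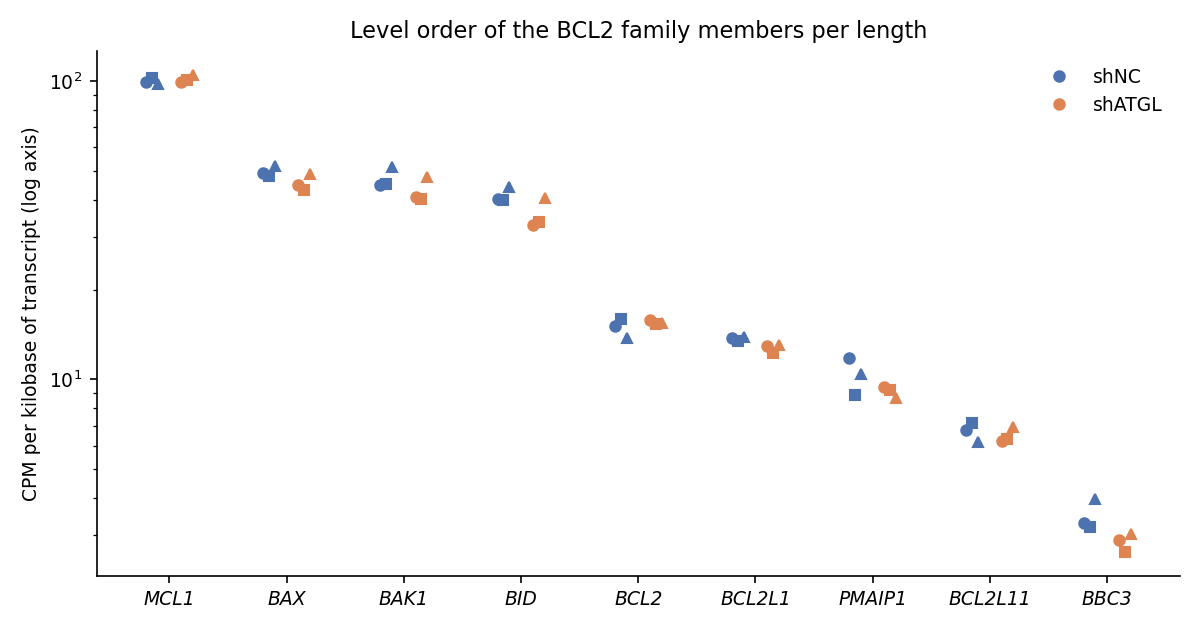
Level of 9 members in CPM per kilobase of the longest protein-coding transcript (log axis), by library, with shNC in blue and shATGL in orange (circle, square and triangle are libraries 1, 2 and 3). *MCL1* is highest in every library and *BBC3* lowest; *BCL2A1*, at 0 in shATGL 3, is not drawn.

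As shares of the summed CPM per kilobase of the 10 members, survival members made up 44.7 ± 1.85% in shNC and 47.7 ± 1.34% in shATGL (SD, n = 3 each). These groups overlapped, since shATGL 3 (46.2%) lay below shNC 2 (46.4%). Effectors made up 33.7 ± 1.30% and 32.4 ± 0.853%, also overlapping. BH3-only members made up 21.8%, 20.8% and 22.0% in shNC 1 to 3 and 19.4%, 19.7% and 20.5% in shATGL 1 to 3, which did not overlap. These shares are a description, with no test, and they carry the same length choice as the order of levels. They were also not corrected for the libraries' trends with length and GC content, which are taken up below. Within the survival members *MCL1* alone made up 77.4% to 78.7% in all libraries, and within the BH3-only members *BID* made up 64.0% to 68.6%.

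Ratios of counts within a library do not depend on its total or its normalization. They are not scaled by transcript length, so they compare libraries and do not say which member had the higher level. They can also move with a library's trends with length and GC content, which are taken up below. Of the 4 ratios compared, each overlapped between the groups. The ratio of *BCL2* to *BAX* was 1.68, 1.82 and 1.46 in shNC and 1.94, 1.96 and 1.73 in shATGL. The shATGL libraries were the higher ones except shATGL 3, which lay below shNC 2. On the log2 scale the difference was 0.19 (means 0.90 ± 0.10 in shATGL and 0.72 ± 0.16 in shNC, SD, n = 3; exact two-sided permutation p = 0.2, adjusted over the 4 ratios 0.4). The ratio of *BCL2* to *MCL1* was 0.288, 0.296 and 0.266 in shNC and 0.303, 0.289 and 0.278 in shATGL, a log2 difference of 0.04 (exact permutation p = 0.6, adjusted 0.6).

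Survival members beside the BH3-only proteins they bind gave the same picture of overlap. *BCL2* to *BCL2L11* was almost constant in shNC (3.18, 3.18 and 3.17) and was 3.64, 3.46 and 3.18 in shATGL. The value of shATGL 3 lay among the controls, and the log2 difference was 0.11 (exact permutation p = 0.3, adjusted 0.4). *MCL1* to *PMAIP1* was 17.0, 23.3 and 18.9 in shNC and 21.2, 22.0 and 24.5 in shATGL, a log2 difference of 0.20 (exact permutation p = 0.3, adjusted 0.4). The spread of this ratio was larger in shNC, where shNC 2 was high. With 3 libraries against 3 the exact permutation test of a ratio could not go under p = 0.1.

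**Figure D4:**
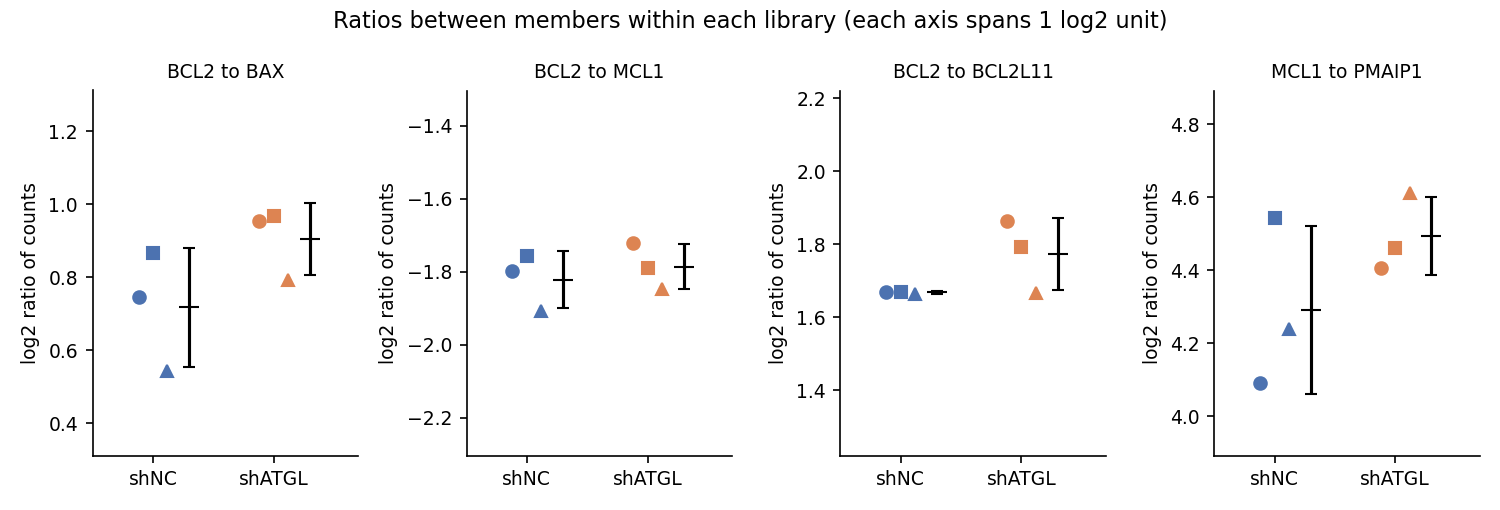
Log2 ratio of counts within each library for 4 pairs of members, with shNC in blue and shATGL in orange (circle, square and triangle are libraries 1, 2 and 3); black bars are the mean ± SD of 3 libraries. The axes do not start at 0 and each spans 1 log2 unit. The groups overlap in all 4 panels.

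Fold changes in these libraries moved with transcript length, and the members differ widely in length. Over the 13770 genes with a known length and a mean of at least 1 CPM, Spearman's rho between log2 fold change and transcript length was 0.41, across genes, which are not independent replicates. Over all 18566 tested genes with a known length it was 0.22, and the median log2 fold change over 10 bins of length ran from -0.11 (779 to 1322 bases) to 0.13 (6821 bases and longer). *BCL2*, with 7461 bases, lies in the longest bin and *BAX*, with 1358 bases, in bin 3. The *BCL2* value of 0.06 stands beside a median of 0.13 in its bin, and the *BAX* value of -0.13 beside -0.10. *BID* (2495 bases, -0.21) and *BBC3* (1838 bases, -0.29) stand beside medians of -0.03 and -0.10.

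After each library's trends with length and GC content were removed, the log2 difference of the *BCL2* to *BAX* ratio was 0.00012 (exact permutation p = 1). This correction of the ratios was chosen after seeing the data. In the corrected edgeR fit *BCL2* was at -0.05 and *BAX* at -0.05, while *BID* was at -0.16, *BBC3* at -0.26 and *PMAIP1* at -0.25. All 9 tested members were then below 0 with a median of -0.11, where 53.1% of all genes were below 0, and 0 were called. *BCL2* to *BCL2L11* gave 0.06 and *MCL1* to *PMAIP1* 0.23 after the correction. What made fold changes move with length was not tested.

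**Figure D5:**
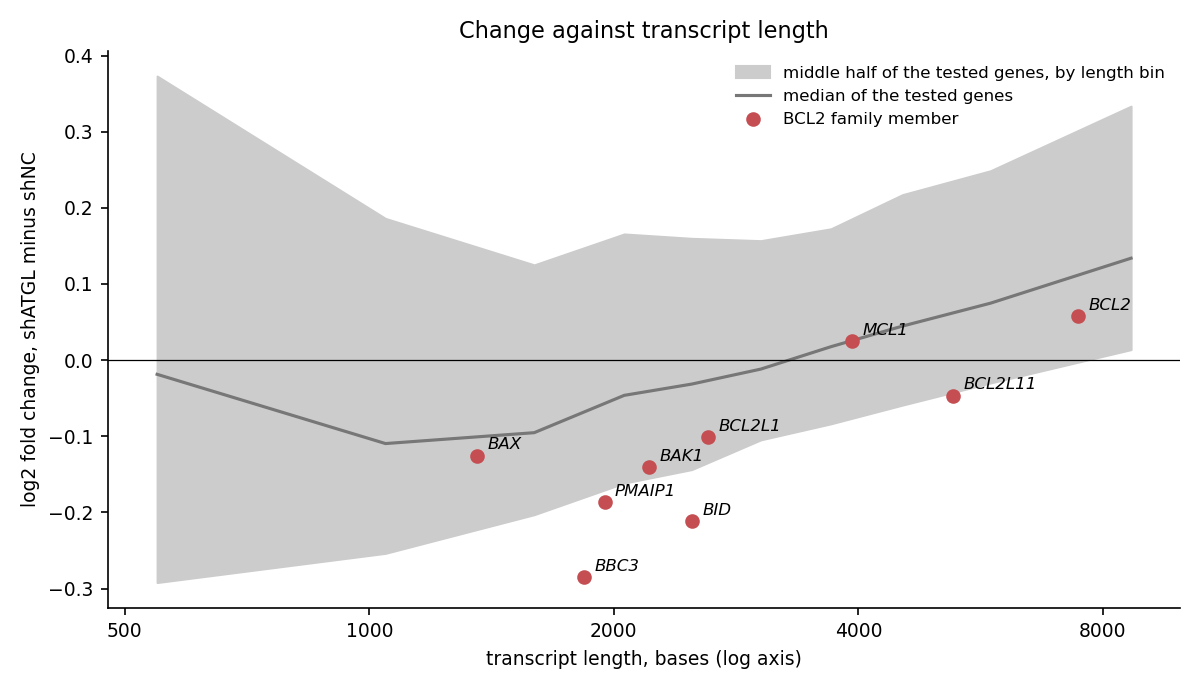
Log2 fold change (shATGL minus shNC) against transcript length in bases (log axis). The line is the median of the tested genes in 10 bins of length, the grey band runs from the lower to the upper quartile, and red points are the 9 tested members. *BBC3*, *BID*, *PMAIP1* and, just so, *BCL2L11* lie below the band, and the other 5 members lie inside it.

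Beside the 10 members, 13 further BCL2 family genes were listed, of which 10 could be tested, 5 with values above 0 and 5 below. *BCL2L12*, a divergent family member, was at 63.5 ± 2.49 CPM in shNC and 52.97 ± 2.57 in shATGL, with a log2 fold change of -0.26 (adjusted p = 0.392). Its adjusted p was 0.0189 without shATGL 3 and 0.0296 with limma voom. It and *BAD*, a BH3-only gene held in check by growth factor signals, were the highest of the list per kilobase. *BAD* was at 23.1 ± 1.58 and 19.6 ± 2.79 CPM (log2 fold change -0.24, adjusted p = 0.471; without shATGL 3, -0.36 and 0.0366). *HRK* and *BCL2L14* had no counts, and *BCL2L10* had counts in 1 library.

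Genes that act on the members or after them gave no adjusted p under 0.05 with all 6 libraries in edgeR, but some did without shATGL 3. Of 20 p53 targets other than the members, 8 were above 0 and 12 below, with 0 at an unadjusted p under 0.05. The most abundant per kilobase, *CCNG1* and *CDKN1A*, the gene of the cell cycle inhibitor p21, had log2 fold changes of -0.02 (0.12 without shATGL 3) and -0.01. Of 14 transcription factors known to act on members, 8 were above 0 and 6 below. *ATF4*, the factor of the integrated stress response, was at 384 ± 25.3 CPM in shNC and 331 ± 28.3 in shATGL (log2 fold change -0.21, adjusted p = 0.399; without shATGL 3, -0.29 and 0.0226), and *MYC* had a log2 fold change of -0.08. *ATF4* was the 1 factor with an unadjusted p under 0.05.

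Of 11 genes that act once the mitochondrial membrane is open, 5 were above 0 and 6 below. *DIABLO*, whose protein leaves mitochondria and blocks caspase inhibitors, was at 47.1 ± 4.81 CPM in shNC and 38.4 ± 2.31 in shATGL (log2 fold change -0.30, adjusted p = 0.392; without shATGL 3, -0.34 and 0.0452). *APAF1*, the scaffold of the apoptosome, was at 68.9 ± 6.15 and 81.6 ± 7.01 CPM (log2 fold change 0.25, adjusted p = 0.4001; without shATGL 3, 0.31 and 0.0341). After the correction for length and GC content *DIABLO* was at -0.23 and *APAF1* at 0.08. The most abundant of the list per kilobase, the cytochrome c gene *CYCS* and the caspase inhibitor gene *BIRC5*, had log2 fold changes of -0.10 (0.02 without shATGL 3) and -0.19. *BIRC5* was at -0.30 without shATGL 3 (adjusted p = 0.0416). Without shATGL 3, 3 of the 11 genes were lower and 2 higher at an adjusted p under 0.05, so the direction was mixed within the list. Of all genes tested in that fit, 6.07% were lower and 7.94% higher at that limit.

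The 3 *VDAC* genes encode channels of the outer mitochondrial membrane that meet BAK1 and BCL2 proteins. All had values below 0, where 48.1% of all genes tested did. *VDAC3* was at 322 ± 10.2 and 282 ± 4.01 CPM (log2 fold change -0.19, adjusted p = 0.392; without shATGL 3, -0.18 and 0.0385), and *VDAC1* at 502 ± 18.2 and 455 ± 15.6 CPM (log2 fold change -0.14, adjusted p = 0.407; without shATGL 3, -0.17 and 0.0467). Corrected for length and GC content, *VDAC1* was at -0.077, *VDAC2* at -0.078 and *VDAC3* at -0.14. Of 6 enzymes listed for adding or removing ubiquitin on MCL1, 5 were above 0, but after the correction for length and GC content 3 were below 0. Without shATGL 3, 1 of the 6 was lower and 2 higher at an adjusted p under 0.05, where 6.07% and 7.94% of all genes tested were. *HUWE1*, a large ligase of MCL1 that was not among these, was at 296 ± 12.6 and 331 ± 17.8 CPM (log2 fold change 0.16, adjusted p = 0.401; without shATGL 3, 0.12 and 0.163). After the correction for length and GC content the value of *HUWE1* was 0.01. The enzyme below 0 without the correction was *DESI1* (log2 fold change -0.16), a peptidase of the SUMO system kept in the list as it was written, although its action on MCL1 is not sure.

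By Pearson's r of log2 CPM over the 6 libraries, the tested genes most like *BCL2* were *LRRC8B* (r = 0.994), *TMEM184A* (0.991) and *POM121L2* (0.990), the latter pair at means of 0.221 and 0.174 CPM. Those most like *MCL1* were *JARID2* (0.998), *DSTYK* (0.989) and *SPRED2* (0.989). An r over 0.9 was reached by 1.12% of the tested genes with *BCL2* and by 0.736% with *MCL1*. The values share libraries and depth and are given as a description.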

How the data were processed

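RNA was sequenced from 6 MV4-11 libraries. The labels name both TRIzol and miRNeasy extraction, and an amplification step before library construction. Reads were cleaned with FASTP, and the authors deposited raw counts for each gene, which had not been normalized. The aligner, the counter and its strand setting are not given in the sources used here. The submitters' processing notes list mm10, a mouse build, while the identifiers are human Ensembl genes. Coordinates, lengths and sequences are from GENCODE 29 (GRCh38), which placed 58254 of the 61806 genes, and a gene name table named 61804.

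Groups were taken from the labels. Low genes were removed with filterByExpr (at least 10 counts, 15 in total), and the rest were normalized by TMM and compared with edgeR 4.0.16 in R 4.3.3 (quasi-likelihood test, Benjamini-Hochberg adjustment over 19149 genes). DESeq2 1.42.0, the tool of the supplementary methods, and limma 3.58.1 were alternatives, with other normalizations and filters, a replicate block, libraries left out, and spline offsets (4 degrees of freedom) for length and GC content. Ratios took 0.5 added counts and exact permutation over 20 relabellings (scipy 1.17.1). On simulated counts of 19149 genes for this comparison, edgeR called 128 of 200 genes changed by folds of 2.5 or 0.4, 127 of the 141 at 1 CPM or more, and 11 unchanged genes. Those folds were larger than any of the tested members, and these counts held no deviating library and no length trend. The simulation therefore does not say how well changes of the members' size would be found. Library totals were 59674064 to 74808280, and the precision of the fold changes also rested on the spread between libraries. The members and lists were chosen with earlier results of these data known. All members, *PNPLA2*, and from each other list the genes under an adjusted p of 0.05, up to 3 with the smallest unadjusted p under 0.05 and the 2 highest per kilobase were named, with the 3 genes most like *BCL2* and *MCL1*. One marker is not reported here.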

Additional observations from a re-analysis of the deposited data

How the results depend on the processing

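The count of members called was 0 under all 16 alternatives. *BID* passed an adjusted p of 0.05 without shATGL 3 (-0.31) and with limma voom (-0.28), short of the fold limit. The sign turned for *BCL2* (-0.0502) and *MCL1* (-0.0125) after correction for length and GC content, for *MCL1* without shATGL 3 (-0.0013), for *BCL2L11* without shNC 2 (0.0262), and for the *BCL2* to *MCL1* ratio after the correction (-0.0363) and without shNC 3 (-0.0084). Over the 6 fits that each left out 1 library, the log2 difference ran from 0.0993 to 0.261 for *BCL2* to *BAX*, -0.0084 to 0.0672 for *BCL2* to *MCL1*, 0.0616 to 0.160 for *BCL2* to *BCL2L11* and 0.102 to 0.328 for *MCL1* to *PMAIP1*, and the log2 fold change from -0.0013 to 0.0669 for *MCL1* from -0.102 to 0.0262 for *BCL2L11*, 0.0003 to 0.13 for *BCL2*, -0.22 to -0.07 for *BAK1*, -0.18 to -0.09 for *BAX*, -0.33 to -0.18 for *BBC3*, -0.26 to -0.09 for *PMAIP1* and -0.31 to -0.16 for *BID*; all 10 places in the order of levels were kept. By the union of exons 6 places were kept and by coding length 5. The other alternatives changed no direction and no side of the threshold. At these depths *BCL2A1* had too few counts for the edgeR filter with all 6 libraries.

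Whether replicate numbers pair the libraries was not settled. Deviations of same-numbered libraries correlated at 0.0893, 0.252 and 0.403 over 12461 genes. Libraries numbered 2 and 3 were closest to their own number, but shNC 1 was closer to shATGL 2 (0.102) and shATGL 1 to shNC 2 (0.226). With the number as a replicate block, 0 members and 0 genes were called, against 1 gene without it. In that fit 3317 genes (17.3%) had an unadjusted p under 0.05, against 11.7% without the block. In edgeR with the block *BID* had an unadjusted p of 0.00863 (adjusted 0.163) and *BAK1* of 0.0225 (adjusted 0.211). Their unadjusted p-values were 0.0551 and 0.159 without it. The ratio differences with the block were 0.19, 0.04, 0.11 and 0.20 (exact sign-flip test, smallest p possible 0.25).

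Over all genes tested, 1 had an adjusted p under 0.05 with edgeR, against 2795 of 19954 without shATGL 3, 2076 with limma voom and 89 of 31959 with DESeq2, of which 1, 319, 266 and 24 also had a fold change of at least 2; the cause was not tested.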
